A study of Mus musculus with 4 samples.

Results

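The Id genes (Id1, Id2, Id3 and Id4) were examined for Pax7 occupancy in iPax7 muscle progenitors. The peaks described are those of the deposited Pax7 list whose summit lay between 100 kb before the start and 100 kb after the end of an Id gene in the GENCODE vM1 annotation of NCBIM37 (mm9). This position rule gave 19 of the 20579 deposited peaks: 4 at Id1, 4 at Id2, 6 at Id3 and 5 at Id4. The cells came from mouse ESCs that carry a Pax7 transgene switched on by doxycycline (Dox), and both groups of libraries, 2 Pax7 ChIP and 2 input, had the same treatment. In the serum protocol, embryoid bodies received Dox at 1 µg/ml from day 3, PDGFRα+FLK1- cells were sorted on day 5, and the culture was harvested on day 9 after 6 days of Dox. The occupancy is thus that of induced Pax7 in cells derived in culture, and a peak list holds no expression values, so the cell type was not checked against marker genes. Peaks were called by the authors on merged ChIP replicates against merged inputs. A peak therefore has no replicate error, the depth behind it is unknown from the list, and the values below are described and ranked without a test.

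Myogenic basic helix-loop-helix (bHLH) factors such as MyoD and Myf5 pair with E proteins and bind E-boxes in the enhancers of muscle genes. Id proteins have the helix-loop-helix through which they pair but lack the basic region that contacts DNA, so that E proteins held by an Id protein cannot form the active complex. Id genes are classical targets of BMP signalling through Smads, and their products hold back differentiation in muscle precursors. Pax7, which marks satellite cells, binds DNA through a paired domain and a homeodomain.

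The genomic sequence at the summit is shown first for the peak nearest to the start of Id1, Id3 and Id4, since every Id gene had a Pax7 peak close to its start. Each sequence is the plus strand of mm9 over 101 bp centred on the summit. Capitals mark the letters searched on both strands: TGANTCA for AP-1 and TGTGGT for Runx in the Id1 peak.
Id1, chr2:152561318-152561418: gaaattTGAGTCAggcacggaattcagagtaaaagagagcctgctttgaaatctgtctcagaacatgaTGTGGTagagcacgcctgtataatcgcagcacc
Id3, chr4:135699231-135699331: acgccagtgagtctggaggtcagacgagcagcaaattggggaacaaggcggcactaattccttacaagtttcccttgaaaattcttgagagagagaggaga
Id4, chr13:48354977-48355077: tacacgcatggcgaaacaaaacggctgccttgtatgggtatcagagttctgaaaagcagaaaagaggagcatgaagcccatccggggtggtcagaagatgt

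The next 4 sequences are the peaks that held the paired-box core GTCACG within 100 bp of the summit, which is why 201 bp are shown. The core reads CGTGAC where it lies on the minus strand. Other capitals mark CAGCTG (E-box), GGCGCC (Smad), TGANTCA (AP-1) and GGAATG (Tead, CATTCC on the minus strand).
Id2, 2733 bp upstream, chr12:25783590-25783790: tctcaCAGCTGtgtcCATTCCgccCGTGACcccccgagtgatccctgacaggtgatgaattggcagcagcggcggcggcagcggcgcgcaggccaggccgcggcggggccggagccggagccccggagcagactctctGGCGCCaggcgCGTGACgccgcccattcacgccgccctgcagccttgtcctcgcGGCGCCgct
Id3, 26.2 kb upstream, chr4:135673066-135673266: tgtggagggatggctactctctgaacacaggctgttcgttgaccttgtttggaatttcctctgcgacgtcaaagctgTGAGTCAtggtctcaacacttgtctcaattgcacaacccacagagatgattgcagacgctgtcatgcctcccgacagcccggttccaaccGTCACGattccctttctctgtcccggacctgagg
Id3, 11.2 kb downstream, chr4:135710525-135710725: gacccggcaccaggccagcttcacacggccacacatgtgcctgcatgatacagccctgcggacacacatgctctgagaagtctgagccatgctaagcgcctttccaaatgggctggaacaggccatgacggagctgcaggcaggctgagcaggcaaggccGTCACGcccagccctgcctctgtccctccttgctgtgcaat
Id3, 33.8 kb downstream, chr4:135733148-135733348: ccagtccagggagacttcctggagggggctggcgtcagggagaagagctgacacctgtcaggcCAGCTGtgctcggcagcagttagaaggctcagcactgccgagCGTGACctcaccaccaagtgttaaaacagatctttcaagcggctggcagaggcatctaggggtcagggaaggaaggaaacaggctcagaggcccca

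A further pair of 101-bp sequences, 11.4 kb downstream of Id2 and 21.7 kb downstream of Id3, is shown because the E-box letters CAGCTG, the kind of site that bHLH factors bind, lay at the summit itself.
Id2, chr12:25769474-25769574: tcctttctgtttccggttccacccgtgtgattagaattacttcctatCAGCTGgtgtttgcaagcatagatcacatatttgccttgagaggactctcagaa
Id3, chr4:135721014-135721114: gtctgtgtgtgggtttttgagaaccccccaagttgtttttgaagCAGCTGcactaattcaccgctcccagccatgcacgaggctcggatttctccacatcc

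Within 100 kb, Id3 had the most Pax7 peaks of the 4 genes and the strongest. It was no longer ahead in number once peaks within 500 bp were merged, nor with 200 kb to either side. Id3 (ENSMUSG00000007872.3) lies on the plus strand of chromosome 4 from 135699412 to 135701670, and its 6 peaks had fold enrichments, the authors' ratio of ChIP to local background at the summit, from 5.58 to 13.2. The strongest ran from 135699043 to 135699439 with its summit 131 bp upstream of the GENCODE start, in sequence annotated as intergenic. Its fold enrichment of 13.2 and −log10 q of 54.1 placed it at rank 420, above 98.0% of all Pax7 peaks in fold enrichment. A weaker neighbour of 5.58-fold, from 135699540 to 135699755, was separated from it by 100 bp and had its summit 213 bp downstream of the start, in exon sequence annotated as UTR. RefSeq places the start of Id3 325 bp farther downstream than GENCODE does, by an exact match of the RefSeq promoter sequence to mm9. Measured from that start, both summits were upstream, at 456 bp and 112 bp.

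The other 4 peaks of Id3 were distal. An intergenic peak of 6.83-fold ran from 135673020 to 135673357, 26.2 kb upstream of the start. On the downstream side, the 7.67-fold peak from 135710512 to 135710761 was 11.2 kb from the start and still nearer to an Id3 transcript start than to that of any other coding gene. The 6.12-fold peak from 135720866 to 135721218 and the 6.29-fold peak from 135733132 to 135733359 were 21.7 and 33.8 kb from the Id3 start. Both were nearer to the start of E2f2, which encodes a transcription factor of the cell cycle, at 7.25 and 3.45 kb, and the latter peak lay in an E2f2 intron. These distal summits downstream of Id3 followed each other at gaps of 10.4 and 12.2 kb. No further summit was found up to 432 kb downstream of the start, where a 9.77-fold peak lay in an intron of Kdm1a, a histone demethylase gene.

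Id2, on the minus strand of chromosome 12 from 25778666 to 25780957 (ENSMUSG00000020644.8), had a single strong peak among 4. The peak from 25783423 to 25783862 was intergenic, with its summit 2733 bp upstream, a fold enrichment of 7.85 and a −log10 q of 22.9. It exceeded 83.9% of all peaks in fold enrichment and was the widest of the 19, at 440 bp. Weaker peaks of 3.29-fold (25784916 to 25785272) and 3.02-fold (25785349 to 25785522) stood 4077 and 4481 bp upstream, with 76 bp between them. Their −log10 q values were 4.22 and 3.17, and they exceeded 4.02% and 2.04% of all peaks in fold enrichment. The remaining peak, from 25769424 to 25769597, was 4.00-fold and 11.4 kb downstream of the start. For all 4 the closest coding start was that of Id2 itself. Beyond the 4481 bp summit, the list held no peak on the upstream side until 843 kb, where a peak of 2.88-fold lay.

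Id1 (ENSMUSG00000042745.9), on the plus strand of chromosome 2 from 152561987 to 152563146, had its strongest peak at the promoter. This peak, from 152561279 to 152561499, was 619 bp upstream, and its 5.72-fold enrichment, above 60.4% of all peaks, came with 13.0 as the −log10 q. The 3.68-fold peak from 152567733 to 152567906 was 5.90 kb downstream, in intergenic sequence. The other pair of peaks lay nearest to the starts of neighbouring genes. Nearness does not assign a target, since the paper reports Pax7 enhancers that contact promoters beyond the closest one. The 4.05-fold peak from 152512735 to 152512919, 49.1 kb upstream, was 27 bp from the start of Mcts2, an imprinted retrogene inside an intron of H13. The 3.76-fold peak from 152501155 to 152501347, 60.7 kb upstream, was in an H13 intron, 5.98 kb from the H13 start. H13 encodes signal peptide peptidase.

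Id4 had 5 peaks, and none reached 5-fold. The gene (ENSMUSG00000021379.1) lies on the plus strand of chromosome 13 from 48356796 to 48359405. The peak nearest to its start, from 48354933 to 48355329, had its summit 1769 bp upstream and was enriched 4.53-fold, at 9.17 for −log10 q. The peaks 30.8, 32.9 and 68.7 kb upstream had fold enrichments of 4.39 (48325894 to 48326103), 4.01 (48323778 to 48323951) and 4.68 (48287961 to 48288200). All 4 upstream peaks lay in introns of A330033J07Rik, a long noncoding RNA gene of the opposite strand that overlaps the start of Id4. The peak downstream, from 48385760 to 48385973, was intergenic, 29.1 kb away and 4.36-fold. Values within the Id4 window were close together, from 4.01 to 4.68, and exceeded between 17.0% and 36.1% of all peaks.

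**Figure D1:**
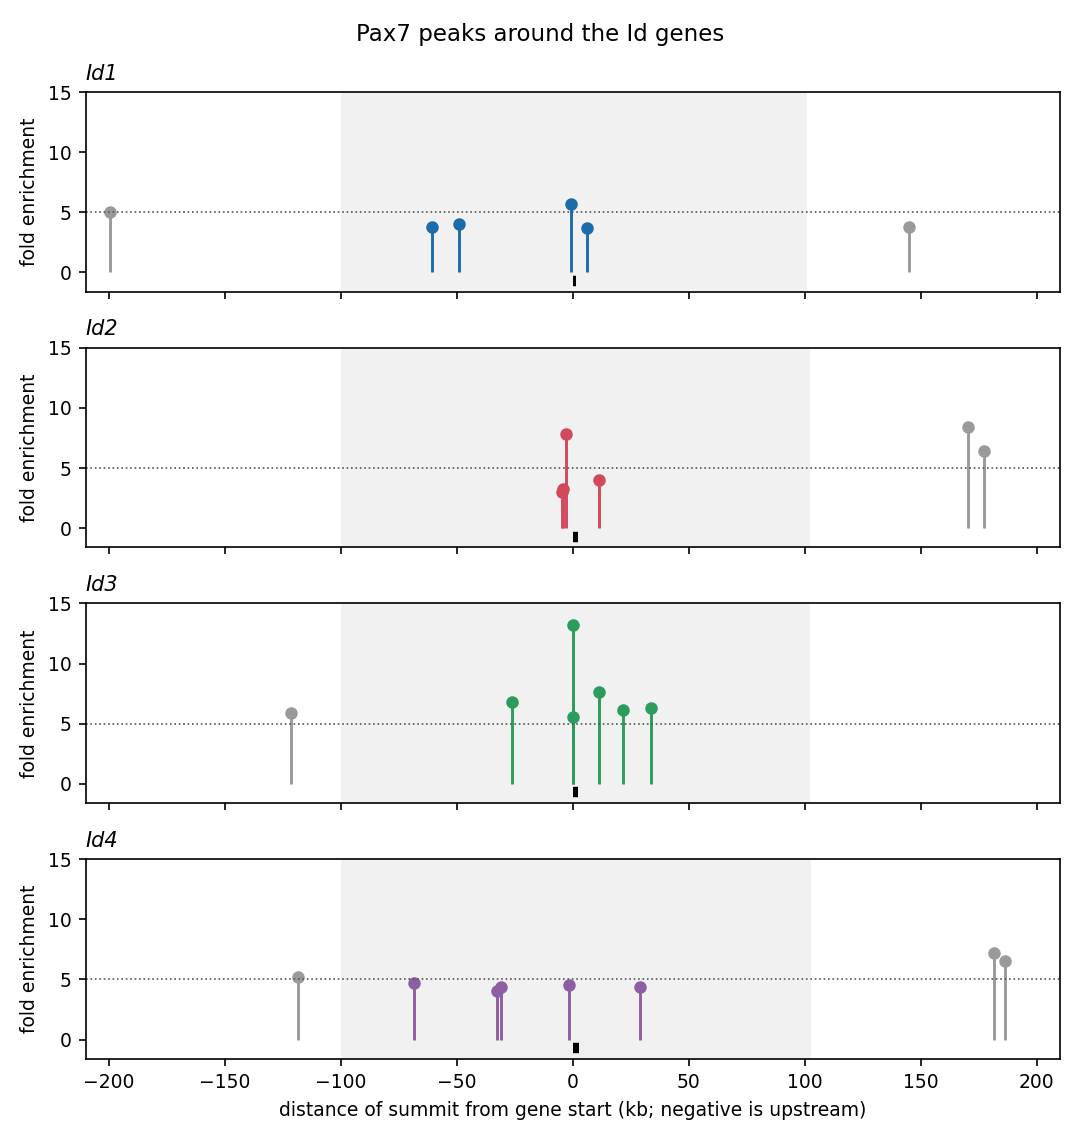
Fold enrichment of each Pax7 peak (vertical axis) against the distance of its summit from the gene start in kb (horizontal axis), in a panel for each Id gene; coloured points are the 19 peaks inside the shaded window of 100 kb, grey points are peaks out to 200 kb, the black bar is the gene and the dotted line is 5-fold. The 6 peaks of Id3 lie above the line and the 5 of Id4 below it, while Id1 and Id2 have 1 peak each above it, both close to the start.

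The map of the 4 loci shows the edge of the window as well. The innermost summits beyond it were the 3.81-fold peak 145 kb downstream of Id1, the 8.37-fold peak 170 kb downstream of Id2, the 5.92-fold peak 122 kb upstream of Id3 and the 5.21-fold peak 119 kb upstream of Id4. The outermost summits inside it were 60.7 kb from Id1, 11.4 kb from Id2, 33.8 kb from Id3 and 68.7 kb from Id4. The 8.37-fold peak was in an intron of Mboat2, 13.4 kb from a start of that gene.

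Within the whole list, most peaks of Id1, Id2 and Id4 were below the median strength, while all 6 of Id3 were above it. The median fold enrichment of the 19 was 4.53, against 5.22 over all 20579 peaks, and 11 of the 19 were below 5.22. Of the 19, 8 were enriched 5-fold or more, beside 54.9% of all peaks. Fold enrichment in the deposited list starts at 1.60, so 5-fold is a limit set for this description and not the threshold of the list. These 8 were the 6 peaks of Id3, the 2733 bp upstream peak of Id2 and the promoter peak of Id1. By gene, the median was 6.56 at Id3, 4.39 at Id4, 3.90 at Id1 and 3.65 at Id2. The lowest Id3 value, 5.58, was above every Id4 value and above 3 of the 4 values at Id2, but below the promoter peak of Id1. The −log10 q ranged from 3.17 to 54.1 with a median of 9.17, against 11.6 for all peaks.

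**Figure D2:**
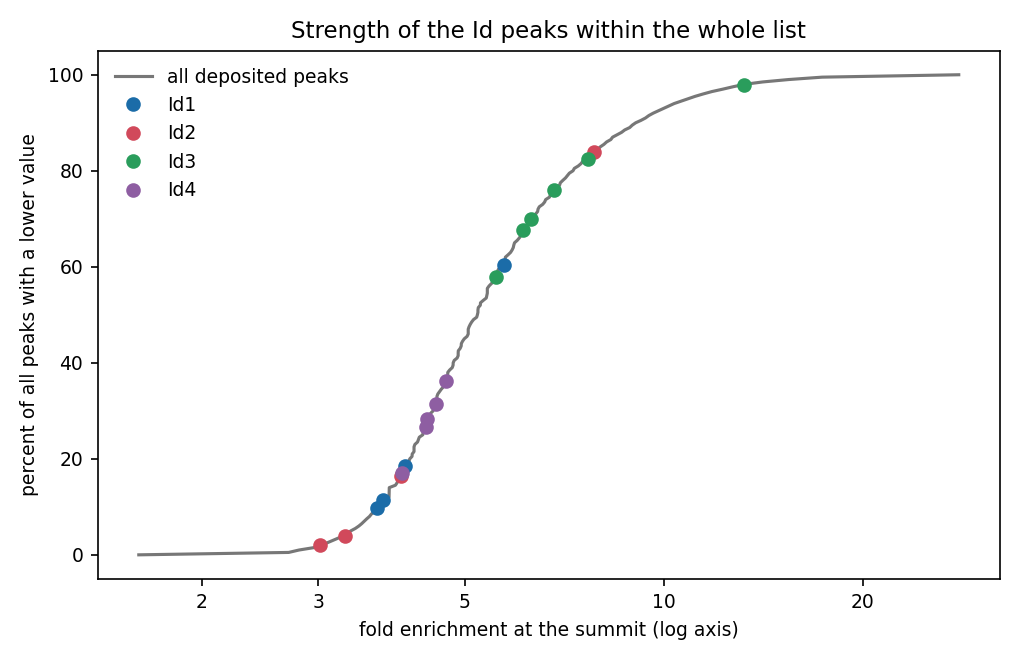
Percent of all 20579 Pax7 peaks with a lower fold enrichment (vertical axis) against fold enrichment on a log axis; the grey line is the whole list and each coloured point is a peak of an Id gene. The Id3 peak of 13.2-fold stands at 98.0%, and 11 of the 19 points lie below the 5.22-fold median of the list.

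The number of peaks around each Id gene was set beside that of all 22350 protein-coding genes of chromosomes 1 to 19 and X, counted by the same rule. All 4 Id genes had a peak within 100 kb, as did 75.2% of coding genes, so a peak at that distance is common. The median coding gene had 2, and 29.8% had at least 4, the count of Id1 and Id2. At least 5 peaks, the count of Id4, were found at 19.4% of genes and at least 6, the count of Id3, at 12.2%. The Id genes are 1160 to 2610 bp long, so their windows are short. With equal windows of 100 kb to either side of every start, as many peaks as at Id1 and Id2, Id4 and Id3 were found at 23.1%, 13.2% and 7.62% of genes. A strongest peak of at least 13.2-fold was found within 100 kb of 4.70% of genes, and one of at least 4.68-fold, the highest at Id4, at 65.9%.

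**Figure D3:**
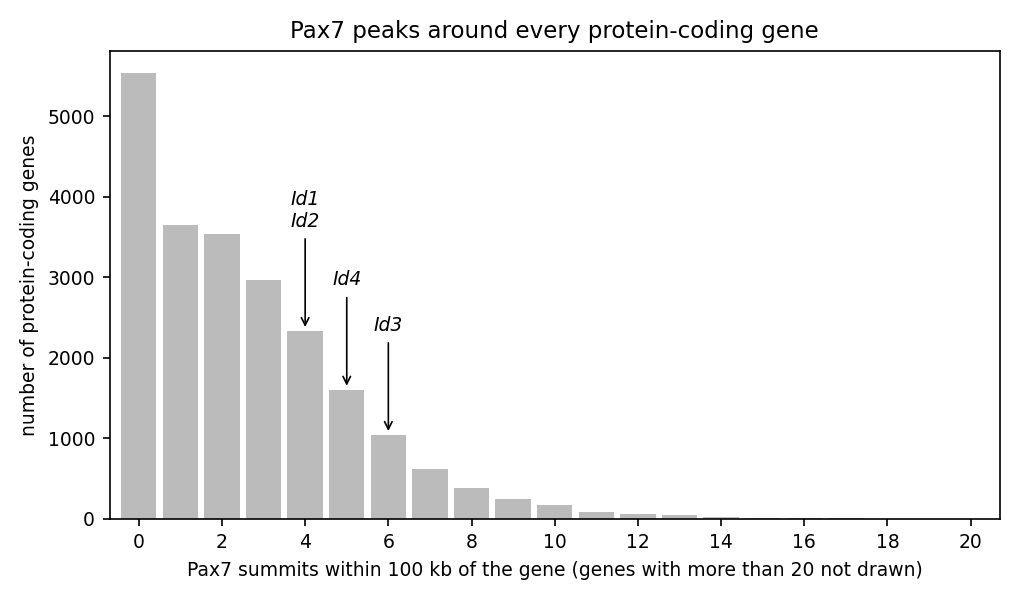
Number of protein-coding genes (vertical axis) by their count of Pax7 summits within 100 kb (horizontal axis), with arrows at the counts of the 4 Id genes; genes with more than 20 summits are left out of the drawing. Id1 and Id2 stand at 4, Id4 at 5 and Id3 at 6, where the median gene has 2.

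The peaks were next set against the gene starts, with limits of 5 kb and 1 kb that were picked once the distances were known. A summit within 5 kb of the start was present at all 4 Id genes, against 18.0% of coding genes. At Id4 it was a 4.53-fold peak, and with a minimum of 5-fold the nearest summit to Id4 was 118613 bp away. A summit within 1 kb was present at Id1 and Id3, against 11.8% of coding genes. The nearest summit was 131 bp from the start of Id3, 619 bp from Id1, 1769 bp from Id4 and 2733 bp from Id2, and each of these was upstream. The share of coding genes with a summit as near as that was 5.14%, 10.3%, 13.4% and 15.0%, and the median distance over all coding genes was 41.0 kb. Counting every peak, 7 of the 19 lay within 5 kb of the start of their Id gene and 12 of the 19 were upstream. Of the 19, 15 were nearer to their own Id gene than to any other coding start. These counts were not set against other genes or peaks, and the last depends on how many other coding genes lie nearby. Of other coding genes, 4 overlapped the window of Id1, 3 that of Id3, 1 that of Id2 and none that of Id4.

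By annotation, 4 of the 19 summits were within 1 kb of a transcript start, 6 of the others were in introns and 9 were intergenic. Over all peaks these classes made up 16.3%, 42.1% and 39.0%.

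A Pax recognition sequence, either the paired-box core GTCACG, the homeodomain letters ATTA followed directly by the paired letters GTCAC or GTCAT, or a homeodomain dimer of TAAT and ATTA with 2 or 3 bases between them, was present within 50 bp of the summit in 1 of the 19 peaks. Over all peaks the share was 14.6%. The match was the core in the E2f2 intron downstream of Id3, 7.5 bp from the summit on the minus strand. With 100 bp to either side, 4 of the 19 held a Pax sequence, beside 18.8% of all peaks. In each of the 4 it was the core, which 14.2% of all peaks held there: 3 were peaks of Id3 and the other was the 2733 bp upstream peak of Id2. In the latter the core occurred on both flanks, 51.5 bp and 73.5 bp from the summit. The 13.2-fold peak at the Id3 start held no match to any of the letters searched within 100 bp, which says only that these letters are not in that window.

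Among letters of other factors, CAGCTG, the E-box that myogenic bHLH factors prefer, lay within 50 bp of 3 summits (15.8%, against 15.7% of all peaks), at 0.5 bp in the downstream peak of Id2 and at 3.5 bp and 34.5 bp in the Id3 peaks 21.7 and 33.8 kb downstream. The AP-1 letters TGANTCA were found in 2 peaks, 41 bp from the promoter summit of Id1 and 20 bp from the summit 26.2 kb upstream of Id3, where 6.82% of all peaks held them. The Runx letters TGTGGT were found in both Id1 peaks on either side of the gene, 20.5 and 34.5 bp from the summit, against 9.73% of all peaks. GGCGCC, a Smad site, was present in the 2733 bp upstream peak of Id2, 40.5 bp from its summit, and in 1.31% of all peaks. That window was 79.2% GC, against a median of 45.5% over all peaks, and the share was not adjusted for base composition. GGAATG (Tead) was absent from the 50 bp windows of the 19, while 2255 of the 20579 peaks held it, and GCACTG, searched as a control, was in 1 of the 19 and 6.86% of all.

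**Figure D4:**
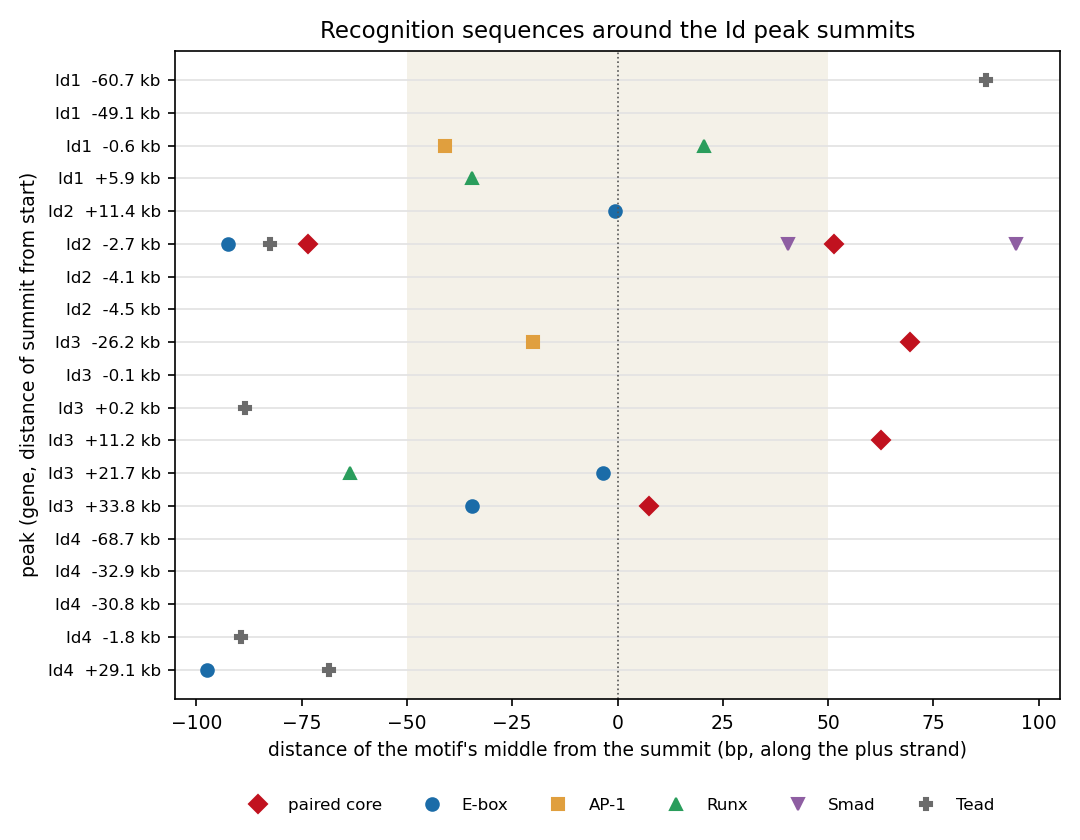
Position of each named recognition sequence relative to the summit in bp along the plus strand (horizontal axis) for the 19 peaks, in a row each (vertical axis); the shaded band is 50 bp to either side. A single paired core falls inside the band, in the Id3 peak at 33.8 kb, and 3 of the 5 Id4 rows hold no symbol.

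In base composition, an Id2 peak stood highest. The median GC content in the 101 bp around a summit was 50.5% for the 19, whose values spanned 40.6% to 79.2%, and 45.5% for all peaks. The value of 79.2% belonged to the 7.85-fold peak 2733 bp upstream of Id2. It was above that of 99.9% of all peaks, and the window held 15 CpG dinucleotides. The peak at the Mcts2 start held 11. The strongest peak, at the Id3 start, was 48.5% GC with 3 CpGs, close to the median of the 19.

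Genes of the same circuit were counted by the same rule, in 4 groups of 15 genes in all: E proteins, myogenic bHLH factors, other HLH repressors and Smads that carry or relay BMP signals. Of these, 14 had at least 1 Pax7 peak within 100 kb, beside 75.2% of all coding genes, with a median of 3 and 72 peaks in sum. Because the windows of Myf5 and Myf6 shared all 6 of their peaks, the number of distinct peaks was 66. A summit within 5 kb of the start was found at 9 of the 15, beside 18.0% of all coding genes. The 15 genes were picked with earlier results of these data known, and the 5 kb limit after the Id distances were seen. These shares are therefore a description of a chosen list and not a test.

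Among the partners of the Id proteins, the E protein genes Tcf4 and Tcf12 had 18 and 12 peaks, of which 9 and 7 were at least 5-fold. These genes are 344 and 268 kb long, so their windows are wider than those of the Id genes. The strongest were 13.4-fold, 7.68 kb upstream of Tcf4, and 14.5-fold, 292 kb downstream of the start of Tcf12. Tcf3, which encodes E12 and E47, had a single peak of 3.55-fold, 297 bp upstream of its start. Counts at the myogenic bHLH factors, the genes whose products Id proteins hold back, were 6 at Myf5, 6 at Myf6, 7 at Myod1 and 8 at Myog, each at or above the count of Id3. The nearest summit was 201 bp upstream of Myog (4.56-fold) and 892 bp upstream of Myf5 (6.32-fold), whereas at Myod1 it was 20.5 kb away (4.19-fold). The strongest peak was 12.9-fold at Myod1, 62.8 kb upstream, close to the 13.2-fold of Id3. It was 8.19-fold at Myog, 58.0 kb downstream, and 6.32-fold at Myf5 and Myf6, which share that peak.

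The genes listed as other HLH repressors had fewer peaks than the myogenic factors. Hes1, a Notch target, had 4, the nearest 4.02 kb downstream of its start with 5.48-fold. Hes6 had 2, of which 1 was 175 bp upstream with 9.82-fold. Msc, which encodes the repressor musculin, had 1 at 39.7 kb and 5.76-fold, and Hey1 had 0 within 100 kb and its nearest summit at 106 kb. The BMP Smads Smad1, Smad5 and Smad9 had 2, 1 and 1 peaks, and Smad4, their common partner, had 3. Their strongest values were 9.41-fold at Smad1, 76.7 kb upstream, 7.14-fold at Smad4, 3.68-fold at Smad5 and 2.62-fold at Smad9. With no limit on strength, the Id counts of 4 to 6 lay above each of the Smads, at or above each of the other HLH repressors, and at or below each of the myogenic factors. This order did not hold for peaks of at least 5-fold. Of these, Id1 and Id2 had 1 each and Id4 had 0, while Smad4 had 2 and Smad1, Hes1, Hes6 and Msc had 1 each. Id3 had 6, above each of the myogenic factors, with 4 at Myf5, 4 at Myod1, 4 at Myf6 and 3 at Myog.

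**Figure D5:**
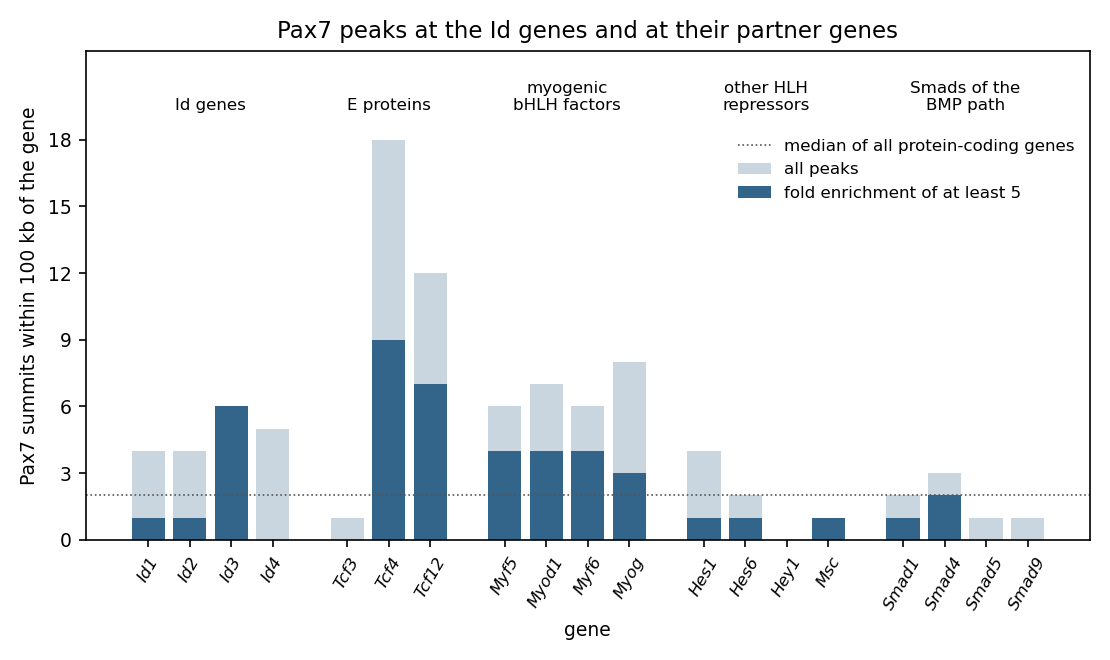
Pax7 summits within 100 kb (vertical axis) of each Id gene and of the 15 listed genes (horizontal axis), as pale bars for all peaks and dark bars for those of at least 5-fold; the dotted line is the median of 2 over all protein-coding genes. Id3 is the Id gene whose dark bar of 6 fills the pale one, and Id4 has no dark bar.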

How the data were processed

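Pax7 ChIP-seq was measured in 2 Pax7 ChIP and 2 input libraries of Dox-treated iPax7 progenitors. Per the methods, the authors mapped the reads (50 bp, single-end) with bowtie2 2.3.4.1 to mm9. Reads with a unique position were kept, and Picard 1.88 took out PCR copies. Replicates were then merged for peak calling in MACS2 2.1.1, for which q had to be under 0.01. The deposited list holds the fold enrichment (a ratio to local background), the −log10 p-value (not used) and −log10 q-value, a score that is the whole part of 10 times −log10 q, and the summit. Columns without a sample numbered 0. The authors' reporting form describes the peaks as above 5-fold, whereas fold enrichment in the deposited list starts at 1.60, and the values were used as deposited. Read depth is not in the list, so no interval was computed.

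Coordinates are 1-based on NCBIM37. Genes and transcript starts came from GENCODE vM1, and RefSeq promoter sequences (GRCm38.p6, present for 3 of the 4 genes) were placed on NCBIM37 by exact match. The motif search covered either strand out to 50 bp from a summit, with 25 and 100 bp as alternatives. Other alternatives were windows of 50 and 200 kb or from the start alone, any overlap of at least 1 bp, peaks within 500 bp merged, and minimums of 5 on fold enrichment or −log10 q. Each Id window held 10 or fewer peaks, so every Id peak is named. For the listed genes the counts are given, with the nearest or strongest peak of those described. The Id genes, the 15 listed genes and the motifs were chosen with earlier results of these data known. The 5 kb and 1 kb limits and the choice of printed sequences followed their values. Counting and motif search were tested on simulated data. Python 3.11.15, numpy 2.4.6, pysam 0.24.0, matplotlib 3.10.9 and samtools 1.23.1 were used.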

Additional observations from a re-analysis of the deposited data

How the results depend on the processing

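Of 60 combinations of a value and an alternative, 51 stayed within 1.5 times the reported value. A fold enrichment of at least 5 left 1 peak at Id1, 1 at Id2, 0 at Id4 and 37 at the 15 listed genes, and put the nearest summit to Id4 at 118613 bp. A −log10 q of at least 5 left 2 peaks at Id2 with a median fold enrichment of 5.92. With 200 kb to either side, Id4 had 8 peaks and Id3 had 7. With peaks within 500 bp merged, Id3 and Id4 had 5 each. With 100 bp around summits, 4 of the 19 peaks held a Pax sequence, beside 18.8% of all peaks. The start of the RefSeq transcript, an alternative added after the data were seen, kept Id2, Id3 and Id4 within 1.5 times. Id3 kept 6 peaks under both thresholds on strength. No paired analysis was possible because peaks were called on merged replicates and no value comes from a test, and for the same reason no replicate could be left out.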
